A study of Mus musculus with 14 samples.

Results

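The cardiac transcription factors Nkx2-5, Gata4, Gata6, Tbx5, Tbx20, Hand2, Mef2a, Mef2c, Mef2d and Srf were described in mouse heart chromatin by 2 histone marks, acetylation (H3K9ac) and butyrylation (H3K9Bu) of lysine 9 of histone H3. They were chosen by symbol: every region whose gene list holds one of the 10 names was taken, which gave 281 of the 145601 regions in 3 deposited tables, for 10 of the 17063 gene symbols listed there. There were 92 such regions in the table of both marks at 0% fat, 73 in the table of H3K9ac at 10 and 60% fat and 116 in the table of H3K9Bu at 10 and 60% fat. The rule used no signal value.

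Hearts came from male C57BL/6J mice, 12 weeks old, that had transverse aortic constriction (TAC), in which a band on the aorta raises the pressure that the left ventricle works against, or a sham operation. They ate food with 0, 10 or 60% of its energy as fat, beginning 4 days ahead of surgery and going on for a week after it. The 12 precipitated libraries are TAC and sham at each diet for H3K9Bu and for H3K9ac (each 1 library from a pool of 3), and the labels name no genetic change in any group. The other 2 libraries are input DNA and were not used here. The series asks how fat in the diet and TAC go with these marks. A difference between single libraries has no replicate check.

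NKX2-5, GATA4, GATA6, TBX5, TBX20 and HAND2 bind DNA together at the genes of the heart muscle cell from early heart formation on, and MEF2 proteins and SRF turn on muscle and growth genes when pressure or signals from the membrane change. Acetylation of H3K9 marks active promoters, and many factors of this core network also control one another's genes. Butyrylation puts a longer acyl chain, which the breakdown of fatty acids can supply, on the same residue.

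Promoter sequences, 250 bases upstream of a start, were found in the RefSeq table of GRCm38.p6 (the build of mm10) for 7 of the 10 members, in 9 windows. The motifs sought on both strands were AGATAA for GATA factors, TNAAGTG for NKX2-5, AGGTGT for T-box factors, CANNTG (the E-box, used by HAND factors), the MEF2 box and the CArG box, the site of SRF. Shown 5′ to 3′, with every match in capitals, are windows at 5 members the results below turn on: Srf, at chr17:46556163-46556412 (minus strand), Hand2, at chr8:57320733-57320982 (plus strand), Nkx2-5, at chr17:26841566-26841815 (minus strand), Mef2a, at chr7:67372859-67373108 (minus strand), and the start of Mef2c that lies under its strongest H3K9ac, at chr13:83523406-83523655 (plus strand).
Srf: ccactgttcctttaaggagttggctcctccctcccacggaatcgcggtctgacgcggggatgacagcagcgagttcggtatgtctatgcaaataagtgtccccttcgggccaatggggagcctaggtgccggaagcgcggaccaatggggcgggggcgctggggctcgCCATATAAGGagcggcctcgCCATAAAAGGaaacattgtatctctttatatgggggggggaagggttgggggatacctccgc
Hand2: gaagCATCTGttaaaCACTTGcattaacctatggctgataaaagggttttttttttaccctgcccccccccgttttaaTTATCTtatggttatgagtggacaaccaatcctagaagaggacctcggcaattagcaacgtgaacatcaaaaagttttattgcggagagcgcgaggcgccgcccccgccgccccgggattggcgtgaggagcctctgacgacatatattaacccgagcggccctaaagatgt
Nkx2-5: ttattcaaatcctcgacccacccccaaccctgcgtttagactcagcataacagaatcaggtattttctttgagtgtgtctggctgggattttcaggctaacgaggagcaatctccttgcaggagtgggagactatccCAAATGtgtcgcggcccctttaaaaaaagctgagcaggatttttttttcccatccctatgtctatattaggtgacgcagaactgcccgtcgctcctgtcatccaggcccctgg
Mef2a: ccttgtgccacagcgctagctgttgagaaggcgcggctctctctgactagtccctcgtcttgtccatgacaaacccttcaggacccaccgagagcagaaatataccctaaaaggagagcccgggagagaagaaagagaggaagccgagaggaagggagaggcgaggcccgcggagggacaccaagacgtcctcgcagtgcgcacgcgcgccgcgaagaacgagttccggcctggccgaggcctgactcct
Mef2c: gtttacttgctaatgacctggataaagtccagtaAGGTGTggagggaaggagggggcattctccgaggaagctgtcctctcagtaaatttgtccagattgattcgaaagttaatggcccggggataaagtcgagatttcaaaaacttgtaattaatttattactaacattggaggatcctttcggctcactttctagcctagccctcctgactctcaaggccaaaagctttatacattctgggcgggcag
The Srf window held 2 CArG boxes, at positions -82 and -62 relative to the start, a motif present in 1.47% of 32841 promoter windows of that length. Hand2 held 1 GATA motif (in 9.99% of all windows) and 2 E-boxes (66.2%), Nkx2-5 held 1 E-box, and the Mef2c start held 1 T-box motif (11.8%). Mef2a held 0 of the 6 motifs, and 0 of the 9 windows held the NKX2-5 motif (10.1% of all windows) or the MEF2 box (2.92%). A match of letters is not a bound site. GC content was 59.6% in the Srf window, 49.2% in those of Hand2 and Nkx2-5, 61.6% in that of Mef2a and 44.8% in that of Mef2c, against a median of 52.4% over all windows.

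The measure of signal is the deposited average density of tags within a region, in tags per position, and it was compared only within a table. Tags estimated from it came to between 7936243 and 9163220 per H3K9ac library and between 2543841 and 6624273 per H3K9Bu library. The sham 10% fat H3K9Bu library stood apart, with 5194261 tags against 2543841 to 3292938 in the other 3 of its table and 41348 called regions against 14679 to 29473. Results that rest on it are given without it too. Cardiomyocyte markers were looked up, and all 7 of the list (among them Myh6, Actc1, Tnnt2 and Pln) had a promoter region in each table. All 6 endothelial markers had one too, as did 13332 to 14590 genes per table of the 17063 listed. The count therefore cannot check the labelled tissue.

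A region was called a promoter region if it touched the stretch that reaches 7500 bp before and 2500 bp past the gene start given in the file, and distal otherwise. By this rule 34, 30 and 44 of the members' regions in the tables of 0% fat, of H3K9ac and of H3K9Bu were promoter regions. Mef2c had 0 of them. Its strongest H3K9ac lay at 21187 bp from the start used in the file, over the other RefSeq start printed above, and that region stands in for a Mef2c promoter here. The like region at 0% fat, at 21116 bp, begins just downstream of the printed window. Of the 281 regions, 204 had a mean signal at or above the 25th percentile of their table and were tested: 75 at 0% fat, 56 for H3K9ac and 73 for H3K9Bu at 10 and 60% fat. In the H3K9Bu table at 10 and 60% fat, 0 regions of Tbx5 reached it. Some regions lie nearest to the start of another gene, 12, 12 and 19 in the 3 tables, such as that at Neil2 among the regions of Gata4 and that at Cul9 among those of Srf. Mef2d holds the most of them, with 5 of its 10 regions at 0% fat, 6 of 9 for H3K9ac and 11 of 17 for H3K9Bu, which lie nearest to Gm19451 or 1700113A16Rik.

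Promoter H3K9ac was first compared between TAC and sham hearts at each diet, at the promoter region of each gene with the highest mean signal in its table. On average signal, relative to all regions, the promoters of Nkx2-5, Gata6 and Hand2 carried less H3K9ac after TAC at all 3 diets. The fall was about the same size at each diet for Hand2, and least at 10% fat for Nkx2-5 and Gata6. Mef2a leaned the other way. Peak signal of these regions, as deposited, was lower in TAC hearts at all 3 diets for Nkx2-5. For Gata6 it was higher in TAC hearts at 0 and 60% fat and lower at 10%. For Hand2 it was higher in TAC hearts at 60% fat and lower at 0 and 10%. Ratios below are log2 of TAC over sham, with 1 tag per position added, minus the median over all tested regions of that comparison (0.15 at 0% fat, 0.03 at 10% and 0.14 at 60%), and the range in parentheses is a 95% counting interval (Clopper-Pearson), which covers counting error only.

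**Figure D1:**
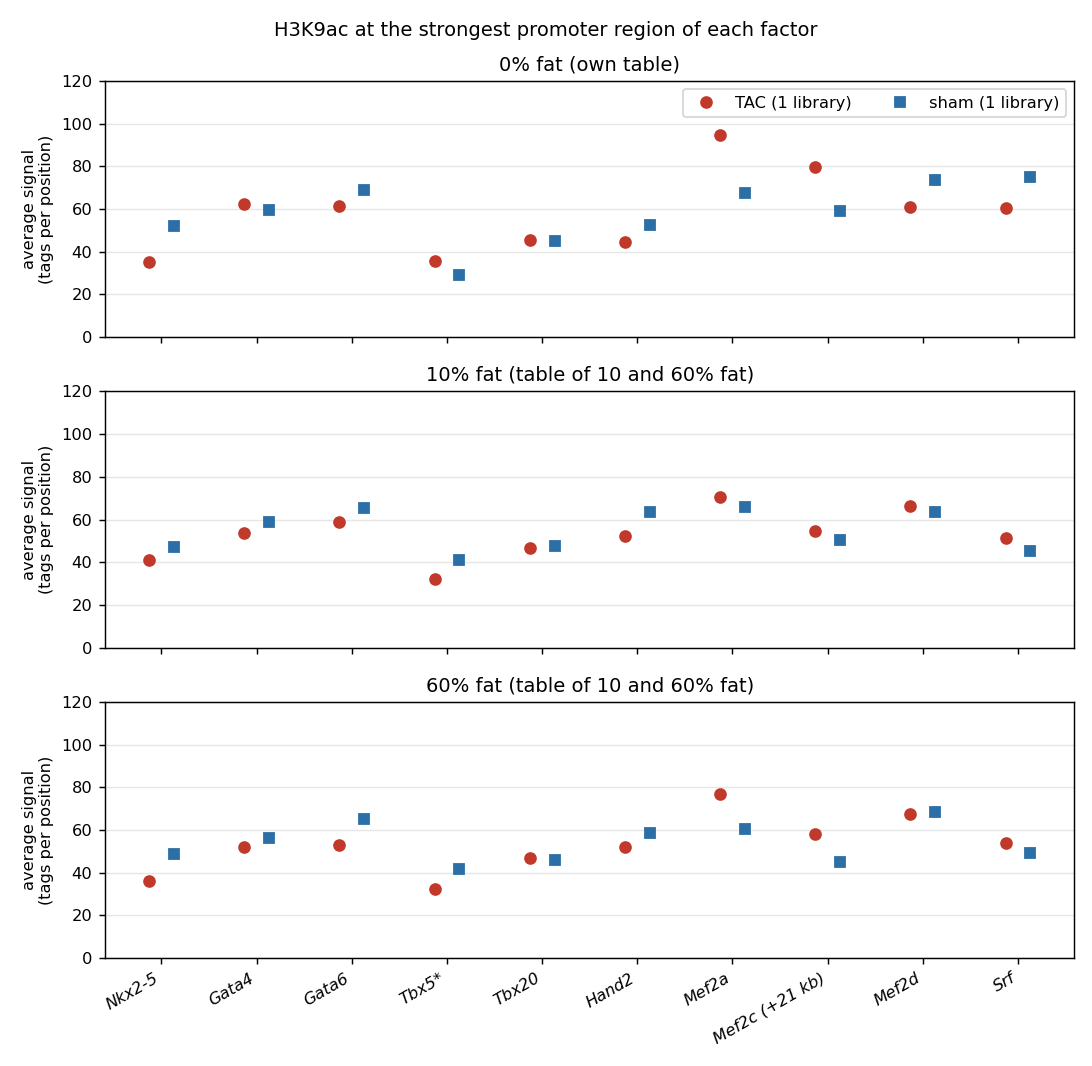
Average H3K9ac signal (tags per position) at the strongest promoter region of each factor in the TAC library (red circles) and the sham library (blue squares), with 1 panel per diet and 1 library per point. For Mef2c the region at 21187 bp (21116 bp at 0% fat) is drawn. *Tbx5 at 0% fat is the region at -3273 bp, which lies nearest to Gm5563. Nkx2-5 and Hand2 are lower in TAC at each diet, and Mef2a is higher.

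Nkx2-5 encodes the homeobox factor that opens heart muscle genes from the first stages of heart formation. At its promoter region (chromosome 17, 26838707 to 26841566, mm10, at 0% fat) the H3K9ac signal was 35.0 in TAC and 52.1 in sham hearts at 0% fat, a log2 ratio of -0.71 (-0.90 to -0.55). At 10% fat it was 41.3 in TAC and 47.3 in sham hearts (-0.22, -0.38 to -0.07). At 60% fat it was 36.2 in TAC and 48.6 in sham hearts (-0.56, -0.73 to -0.41). The TAC value lies under the sham value at each diet. The lower signal was spread over the locus. Summed over all its regions the ratio was -0.65 at 0% fat, -0.18 at 10% and -0.56 at 60%. In the same order, 9 of 10, 8 of 9 and 9 of 9 regions were below 0. These counts include untested regions of low signal: 8 of 10, 7 of 9 and 7 of 9 were tested. Over all tested promoter regions, 43.2%, 42.7% and 46.6% were below 0. Over all tested regions outside promoters, the shares were 56.0%, 59.2% and 54.3%.

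Gata4 and Gata6 encode zinc finger factors that share targets in the heart. Gata6 had 61.5 in TAC and 68.9 in sham hearts at 0% fat (-0.31, -0.39 to -0.24), 58.9 and 65.4 at 10% (-0.18, -0.25 to -0.11), and 53.1 and 65.2 at 60% (-0.43, -0.51 to -0.36). Gata4 had 62.2 in TAC and 59.7 in sham hearts at 0% fat (-0.09, -0.26 to 0.07), 53.8 and 58.7 at 10% (-0.15, -0.23 to -0.08), and 51.9 and 56.4 at 60% (-0.26, -0.34 to -0.19). At 0% fat the strongest Gata4 region, at -3019 bp, is another than the 11896 bp long region used at 10 and 60% fat, and its interval holds 0. The 0% fat region over the Gata4 start, centred at 2820 bp and 9266 bp long, had 49.1 in TAC and 56.8 in sham hearts, with a ratio of -0.36. Summed over all regions at 0% fat, both genes stood at -0.33.

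Hand2 encodes a basic helix-loop-helix factor of the right ventricle and outflow tract. Its strongest promoter region at 0% fat (centred at 3650 bp) had 44.8 in TAC and 52.3 in sham hearts, a ratio of -0.37 (-0.49 to -0.26). At 10 and 60% fat the strongest region was centred at -696 bp (chromosome 8, 57318899 to 57321676) and spans the window printed above. There it had 52.1 in TAC and 63.7 in sham hearts at 10% fat (-0.31, -0.47 to -0.17) and 52.0 and 58.8 at 60% fat (-0.32, -0.48 to -0.16). All of its 12 regions were below 0 at 60% fat, 11 of 12 at 10% and 13 of 15 at 0%. These counts include untested regions of low signal: 9 of the 12 and 11 of the 15 were tested. Over all tested promoter regions, 46.6% were below 0 at 60% fat, 42.7% at 10% and 43.2% at 0%. Over all tested regions outside promoters, the shares were 54.3%, 59.2% and 56.0%.

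The T-box genes differed from each other. Tbx5, a factor of the left heart and conduction system, had 32.0 in TAC and 41.0 in sham hearts at 10% fat (-0.38, -0.56 to -0.22) and 32.3 and 41.7 at 60% fat (-0.50, -0.68 to -0.34) at the region centred at 1908 bp. At 0% fat the region with the highest mean over both marks was another one, at -3273 bp, with 35.8 in TAC and 29.1 in sham hearts (0.14, -0.23 to 0.53). The region just downstream of the start, centred at 2179 bp, had 29.0 in TAC and 37.7 in sham hearts there, a ratio of -0.52. Tbx20, a repressor and activator of the adult heart muscle cell, had 45.4 in TAC and 45.0 in sham hearts at 0% fat (-0.14), 46.6 and 47.5 at 10% (-0.06) and 46.9 and 46.2 at 60% (-0.12), so its signals differed little before centring.

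**Figure D2:**
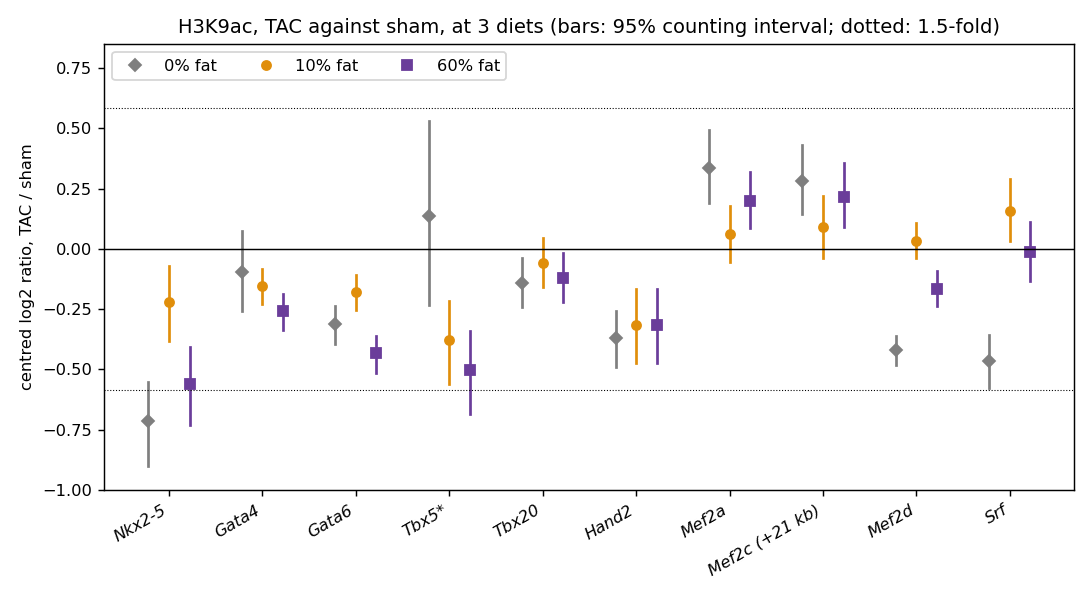
Centred log2 ratio of H3K9ac, TAC over sham, at the same regions as in the plot of levels, at 0% (grey diamonds), 10% (orange circles) and 60% fat (purple squares). Bars are 95% counting intervals and dotted lines mark 1.5-fold. Nkx2-5 is lowest at 0 and 60% fat, while Mef2a and the Mef2c region lie above 0 and Srf and Mef2d spread to both sides.

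The MEF2 genes encode MADS-box factors held in check by class II histone deacetylases, and their values differed in sign. Mef2a had 94.7 in TAC and 67.4 in sham hearts at 0% fat (0.33, 0.19 to 0.49), 70.5 and 66.0 at 10% (0.06, -0.05 to 0.18) and 76.8 and 60.5 at 60% (0.20, 0.09 to 0.32). The 0% fat region is centred at -707 bp. Another Mef2a promoter region there, centred at 1220 bp, had 76.1 in TAC and 70.9 in sham hearts (-0.05, -0.22 to 0.13). The region used at 10 and 60% fat spans both. The Mef2c region had 79.9 in TAC and 59.0 in sham hearts at 0% fat (0.28, 0.15 to 0.43), 54.7 and 50.3 at 10% (0.09, -0.04 to 0.22) and 58.1 and 45.1 at 60% (0.22, 0.09 to 0.35). Mef2d was lower at 0% fat, with 60.9 in TAC and 73.5 in sham hearts (-0.42, -0.48 to -0.36). It had 66.4 and 63.5 at 10% (0.03) and 67.3 and 68.4 at 60% (-0.17, -0.24 to -0.09). The Mef2d region is 14424 bp long at 0% fat and 10133 bp at 10 and 60% fat. Its peak signal, as deposited, was 210 in TAC and 201 in sham hearts at 0% fat. Srf encodes the factor that binds CArG boxes in muscle and immediate early genes. It had 60.4 in TAC and 75.2 in sham hearts at 0% fat (-0.46, -0.58 to -0.36). At 10% fat it had 51.5 and 45.1 (0.16, 0.03 to 0.29), and at 60% 53.9 and 49.1 (-0.01, -0.13 to 0.11). Peak signal of Srf, as deposited, was 142 in TAC and 134 in sham hearts at 0% fat.

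By level, Mef2a was the highest of these H3K9ac regions in the TAC hearts at 0, 10 and 60% fat, while in sham hearts Srf was highest at 0% fat, Mef2a at 10% and Mef2d at 60%. Tbx5 was the lowest in both at 10 and 60% fat. With 1 library per group no spread between hearts is known, so neighbours in this order cannot be told apart. Over all tested member regions, 21 of 75 were at least 1.5-fold lower and 3 at least 1.5-fold higher in TAC at 0% fat, where 17.0% and 9.90% of all 36990 tested regions were. At 10% fat the counts were 2 lower and 0 higher of 56, against 3.65% and 1.89% of all 28614. At 60% fat they were 12 lower and 2 higher of 56, against 7.47% and 4.42%. The median over member regions was -0.28, -0.14 and -0.33 at 0, 10 and 60% fat, where the median over all regions is 0 by centring.

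To test the TAC difference, surgery and diet were fitted together as additive terms over the 4 H3K9ac libraries at 10 and 60% fat, with limma and Benjamini-Hochberg adjustment over all 28614 tested regions. Of 56 member regions, 7 fell after TAC (adjusted p under 0.05) and 0 rose, where 3.59% of all regions fell and 4.05% rose. They belong to Nkx2-5, Gata4, Gata6, Tbx5 and Hand2. At an unadjusted p under 0.05, 18 regions of the 56 were lower and 1 higher, where 9.32% of all regions were lower and 21.4% passed in either direction. The median over the 56 was -0.20, against 0.02 over all regions, and 46 were below 0.

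**Figure D3:**
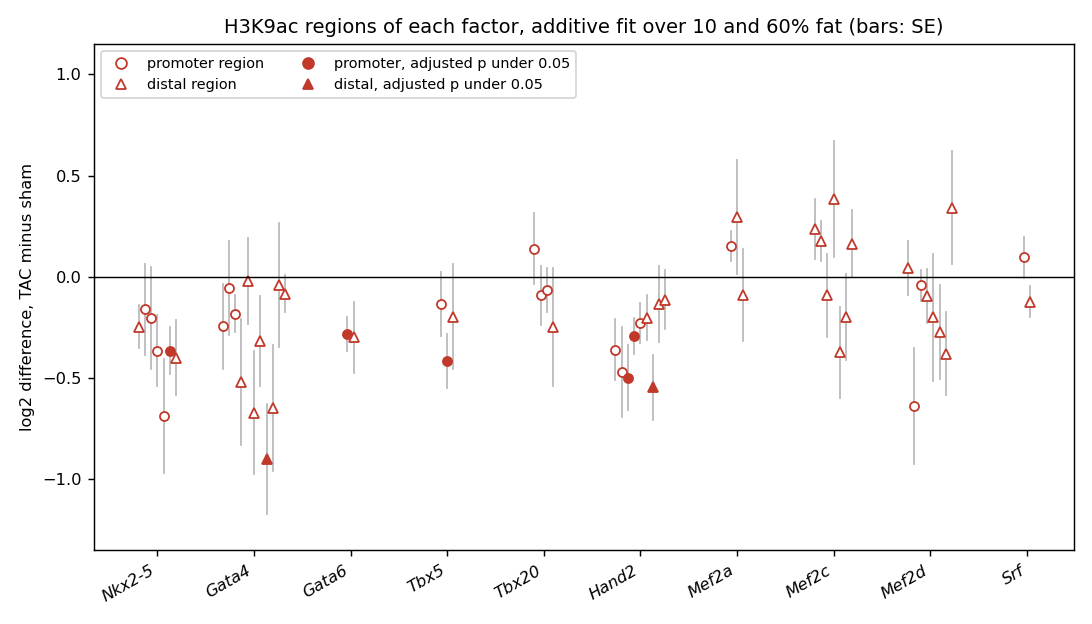
Log2 difference of H3K9ac, TAC minus sham, for each of the 56 tested regions of the factors, from the additive fit over 10 and 60% fat. Circles are promoter and triangles distal regions, in order of distance from the start within a gene, bars are standard errors, and filled symbols have an adjusted p under 0.05. The 7 filled symbols all lie below 0.

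Hand2 had 3 of the 7. At 8406 bp its signal was 27.9 and 22.6 in TAC hearts at 10 and 60% fat, against 39.4 and 32.1 in sham hearts, a log2 difference of -0.55 ± 0.16 (SE, limma adjusted p = 0.0167). At -2684 bp it was 25.3 and 26.7 in TAC hearts, against 34.0 and 37.1 in sham hearts (-0.50 ± 0.16, limma adjusted p = 0.0302). The region at -696 bp fell by 0.29 ± 0.09 on the log2 scale (limma adjusted p = 0.0228). In all 3 regions both TAC values lie under both sham values.

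Nkx2-5 fell at the promoter region centred at 1675 bp (-0.37 ± 0.12, limma adjusted p = 0.0278), Gata6 at the promoter region centred at 825 bp (-0.28 ± 0.08, limma adjusted p = 0.0178) and Tbx5 at 1908 bp (-0.42 ± 0.13, limma adjusted p = 0.0317). Gata4 fell at a distal region, 39876 bp from its start (chromosome 14, 63205119 to 63205650), with 12.9 and 15.7 in TAC hearts at 10 and 60% fat, against 25.4 and 27.2 in sham hearts (-0.90 ± 0.27, limma adjusted p = 0.0202). The Gata4 promoter region itself did not pass (-0.18 ± 0.09, limma adjusted p = 0.228). Its distal neighbours at 34997 and 40737 bp had differences of -0.67 ± 0.31 and -0.65 ± 0.31 and did not pass either (limma adjusted p = 0.170 and 0.199).

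The promoters of Tbx20, Mef2a, Mef2d and Srf, and the Mef2c region, did not pass. Their differences were -0.06 ± 0.11, 0.15 ± 0.07, -0.04 ± 0.08, 0.10 ± 0.10 and 0.18 ± 0.10, with limma adjusted p of 0.781, 0.201, 0.810, 0.623 and 0.277. A difference between these members and the 5 that fell was not tested.

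The fit leaves 1 residual degree of freedom, and limma took each region's spread from regions of like signal. The p-values thus set a difference against departure from additivity in 4 pooled libraries, not against spread between hearts. All 7 calls were lost on the signal as deposited, without centring (limma adjusted p between 0.0528 and 0.174), where 462 regions fell and 1274 rose, against 1028 and 1159 with centring, 4 were lost with no filter on low regions (those of Nkx2-5, Tbx5 and Hand2 at -696 and -2684 bp), and on peak signal that of Nkx2-5 held (limma adjusted p = 0.0112) and the other 6 did not.

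Markers of cell types were read beside these values. Over all regions of the same fit, 3.59% fell, 4.05% rose and 21.4% had an unadjusted p under 0.05. Of the 7 cardiomyocyte marker promoters, 5 fell in the same fit (Myh6, Actc1, Tnnt2, Tnni3 and Pln, with limma adjusted p from 6.52e-08 to 0.0057) and 0 rose. Their summed H3K9ac was 486.4 in TAC and 494.7 in sham hearts at 0% fat, 443.3 and 514.8 at 10%, and 364.9 and 455.7 at 60%. The macrophage list, of which 5 of 6 genes had a promoter region (Adgre1 had none), summed to 283.4 in TAC and 160.5 in sham hearts at 0% fat, 229.2 and 228.9 at 10%, and 249.7 and 178.4 at 60%. The fibroblast list summed to 243.6 in TAC and 176.3 in sham hearts at 0% fat, 201.4 and 202.1 at 10%, and 226.7 and 179.2 at 60%. The endothelial list summed to 349.6 in TAC and 369.2 in sham hearts at 0% fat, 354.3 and 328.8 at 10%, and 388.7 and 332.8 at 60%, and the smooth muscle and pericyte list to 131.7 and 125.5, 114.2 and 123.3, and 99.9 and 93.6. By limma 0 genes of these 4 lists passed, with 2 macrophage, 2 fibroblast, 2 endothelial and 0 smooth muscle genes at an unadjusted p under 0.05. The part of these lists in the members' values was not tested. In whole heart tissue, fewer nuclei of a type and less of a mark per nucleus cannot be told apart.

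The diets were then compared, 60% against 10% fat, with the surgery held fixed. In the additive fit, 0 of 56 member regions passed in either direction by limma, where 0.0210% of all regions were higher and 0.129% lower at 60% fat. At an unadjusted p under 0.05 there were 2 of 56 member regions, a share under the 7.41% of all regions. Both were lower: Mef2d at 23832 bp (nearest to the start of 1700113A16Rik) and Nkx2-5 at -8999 bp. These ratios share their libraries with the TAC comparisons above. Nkx2-5 had 36.2 at 60% and 41.3 at 10% fat in TAC hearts (-0.24, -0.41 to -0.07) and 48.6 and 47.3 in sham hearts (0.11, -0.04 to 0.26) at its promoter. Of 56 regions, 2 were at least 1.5-fold lower and 0 higher in TAC hearts (2.55% and 2.32% of all regions), and 2 lower and 3 higher in sham hearts (2.15% and 2.91%).

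H3K9Bu of the factors was compared between TAC and sham hearts in the same way. At 0% fat the promoters of Nkx2-5 and Gata6 were again lower: Nkx2-5 had 14.8 in TAC and 21.3 in sham hearts (-0.38, -0.68 to -0.13) and Gata6 had 26.6 and 36.3 (-0.32, -0.45 to -0.22). Gata4 had 32.1 in TAC and 41.0 in sham hearts (-0.22, -0.45 to -0.01). Hand2, Mef2a, Mef2d, Srf and Tbx20 lay between -0.05 and 0.00, with intervals that hold 0, and Tbx5 stood at -0.24 (-0.78 to 0.26). For Mef2a, Mef2d and Srf the H3K9Bu ratios were thus near 0 at 0% fat, where their H3K9ac ratios were 0.33, -0.42 and -0.46. That difference has no test, with 1 library each.

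Over all regions at 0% fat, 11 of 75 member regions were at least 1.5-fold lower in H3K9Bu after TAC and 2 higher, against 7.35% and 6.39% of all regions, and the median was -0.22. At 60% fat, 8 of 73 were lower and 2 higher (4.07% and 6.24% of all regions). At 10% fat, where the sham library stands apart, 13 of 73 were lower and 10 higher (11.1% and 29.1%). In the additive fit over 10 and 60% fat, 0 of 73 member regions passed by limma, where 0.0711% of all 43603 regions rose and 0 fell. At an unadjusted p under 0.05 there were 3 of 73 member regions, a share under the 9.87% of all regions: 2 of Mef2d, higher, and 1 of Gata4 at 38324 bp, lower (-0.92 ± 0.43, limma adjusted p = 0.446). Gata4 there had 16.0 and 7.1 in TAC hearts at 10 and 60% fat, against 44.7 and 18.5 in sham hearts. At 0% fat the region 38360 bp from the start had 28.3 in TAC and 54.2 in sham hearts, so all 3 TAC values are under the sham value of their own diet. These signals are not centred. The median log2 ratio over all tested regions was itself -0.12, -0.61 and -0.35 at 0, 10 and 60% fat, so the shared direction says little about Gata4. The members' promoter median of this surgery effect was -0.27, and it was -0.37 without a library of the 60% fat pair and -0.15 without one of the 10% fat pair, which holds the library that stands apart.

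Some H3K9Bu promoter ratios at 10 and 60% fat follow. Mef2a at -832 bp had 28.1 in TAC and 63.5 in sham hearts at 10% fat (-0.54, -0.78 to -0.36), and 22.4 and 28.8 at 60% fat (-0.0012, -0.28 to 0.25). Gata4 at -2807 bp had 19.8 in TAC and 41.3 in sham hearts at 10% fat (-0.41, -0.74 to -0.16), and 14.0 and 21.4 at 60% fat (-0.23, -0.64 to 0.10). For both genes the interval leaves out 0 at 10% fat, where the sham library stands apart, and holds it at 60%. Promoters as a class were also below 0 at 10% fat. The median over the strongest promoter regions of all genes was -0.38 there and -0.04 at 60% fat. Both intervals at 10% fat hold that promoter median. Nkx2-5 summed over its 6 H3K9Bu regions stood at -0.73 (-0.95 to -0.51) at 10% fat, with 6 of 6 below 0. At 60% fat it stood at -0.36 (-0.63 to -0.09), with 5 of 6 below 0. Of these 6 regions, 5 are promoter regions and 4 were tested. Over all tested promoter regions, 67.2% were below 0 at 10% fat and 50.1% at 60%.

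In the diet comparison of H3K9Bu, 0 of 73 member regions passed by limma, where 3.25% of all regions were higher and 0.211% lower at 60% fat. At an unadjusted p under 0.05 there were 8 of 73, a share under the 22.9% of all regions, and 6 of them belong to Mef2d and were higher at 60% fat. The lowest adjusted p was 0.0722 (limma), for the Mef2d region at 28665 bp, nearest to the start of 1700113A16Rik, which had 32.4 at 60% and 31.7 at 10% fat in TAC hearts, and 45.7 at 60% and 19.0 at 10% fat in sham hearts (0.91 ± 0.32). At 9906 bp it had 29.8 and 27.9 in TAC hearts, and 37.0 and 14.5 in sham hearts (0.97 ± 0.34, limma adjusted p = 0.0764).

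These values set the sham 10% fat library, the one that stands apart, below the other 3. Among the 10 Mef2d regions beyond 9000 bp, chosen for description after their values were seen, that library was the lowest of the 4 in 6 and the highest in 3. At the promoter region centred at -2203 bp, nearest to Gm19451, it was the highest, with 61.6, against 31.8 in TAC 10%, 22.2 in TAC 60% and 31.3 in sham 60% fat hearts. Without it, in TAC hearts alone, the summed Mef2d ratio of 60% over 10% fat was 0.01 (-0.07 to 0.10), against 0.25 (0.18 to 0.32) in sham hearts. Over all members, 12 of 73 regions were at least 1.5-fold higher and 11 lower in sham hearts (33.5% and 20.0% of all regions), and 0 higher and 5 lower in TAC hearts (9.72% and 6.34%).

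**Figure D4:**
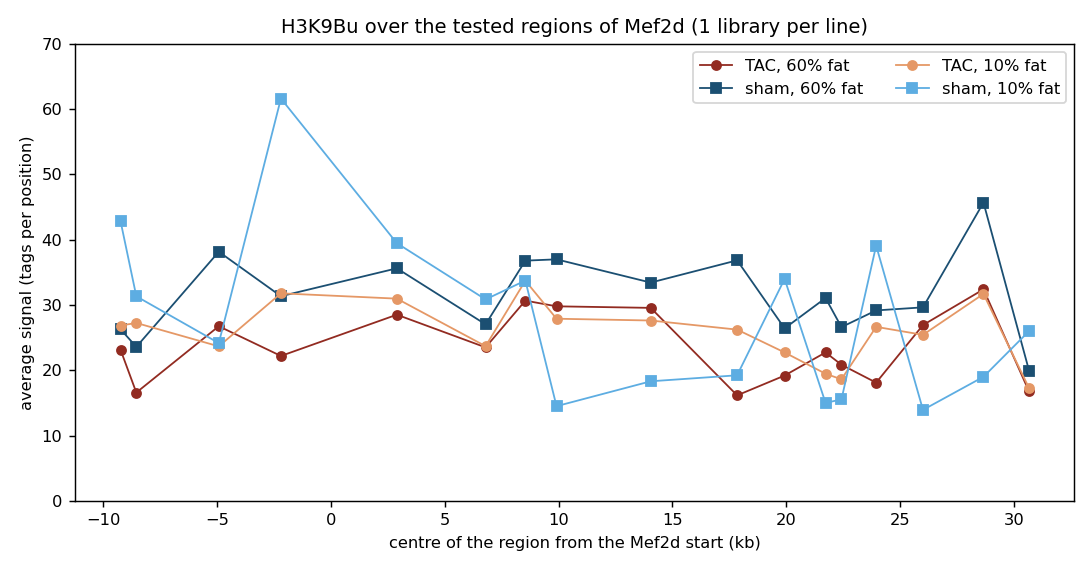
Average H3K9Bu signal (tags per position) over the 17 tested regions of Mef2d, by distance of the region's centre from the start, with 1 line per library. The sham 10% fat library (light blue) is highest at -2203 bp with 61.6 and stands at 14.5 at 9906 bp, where the other 3 lie between 27.9 and 37.0.

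The marks share a table at 0% fat, and there H3K9Bu was set against H3K9ac within TAC and within sham hearts, as a log2 ratio relative to all regions (median -0.24 in TAC and -0.10 in sham hearts). The yield of each antibody is not known, so only the place of a region among all others is described. Promoter regions of the factors leaned to H3K9ac about as often as promoter regions of all genes. Their distal regions leaned to H3K9Bu in a smaller share than regions outside the promoters of all genes did. Neither was tested, and distal regions of a member can hold promoter regions of other genes. Of 9 strongest promoter regions, 9 were below 0 in TAC and 8 in sham hearts, with medians of -0.74 and -0.70, against -0.68 and -0.51 over the strongest promoter regions of all genes. The 1 region above 0 was Mef2a at -707 bp in sham hearts, with 78.0 for H3K9Bu and 67.4 for H3K9ac (0.31). In TAC hearts it had 71.6 and 94.7 (-0.16). The other Mef2a promoter region, centred at 1220 bp, leaned to H3K9ac in both. It had 33.2 for H3K9Bu and 76.1 for H3K9ac in TAC hearts (-0.94), and 31.3 and 70.9 in sham hearts (-1.06). Over all 27 tested promoter regions of the members the medians were -0.40 in TAC and -0.38 in sham hearts, against -0.60 and -0.46 over all promoter regions.

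Among promoter regions, 12 of 27 in TAC and 10 of 27 in sham hearts were at least 1.5-fold lower in H3K9Bu (51.6% and 38.5% of all promoter regions), and 2 in TAC and 1 in sham hearts were higher (7.36% and 7.95%). Among distal regions, 12 of 48 in TAC and 14 of 48 in sham hearts were at least 1.5-fold higher in H3K9Bu, against 47.6% and 50.3% of all regions outside promoters. The count of distal regions that were lower was 11 in TAC and 7 in sham hearts, against 5.10% and 7.69%. The median over members' distal regions was -0.13 in TAC and -0.06 in sham hearts, against 0.55 and 0.59 over all regions outside promoters. These sets are not defined alike. A member's distal region misses only that member's own promoter stretch, while regions outside promoters miss those of all genes. How much of the gap comes from promoter regions of other genes was not tested.

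**Figure D5:**
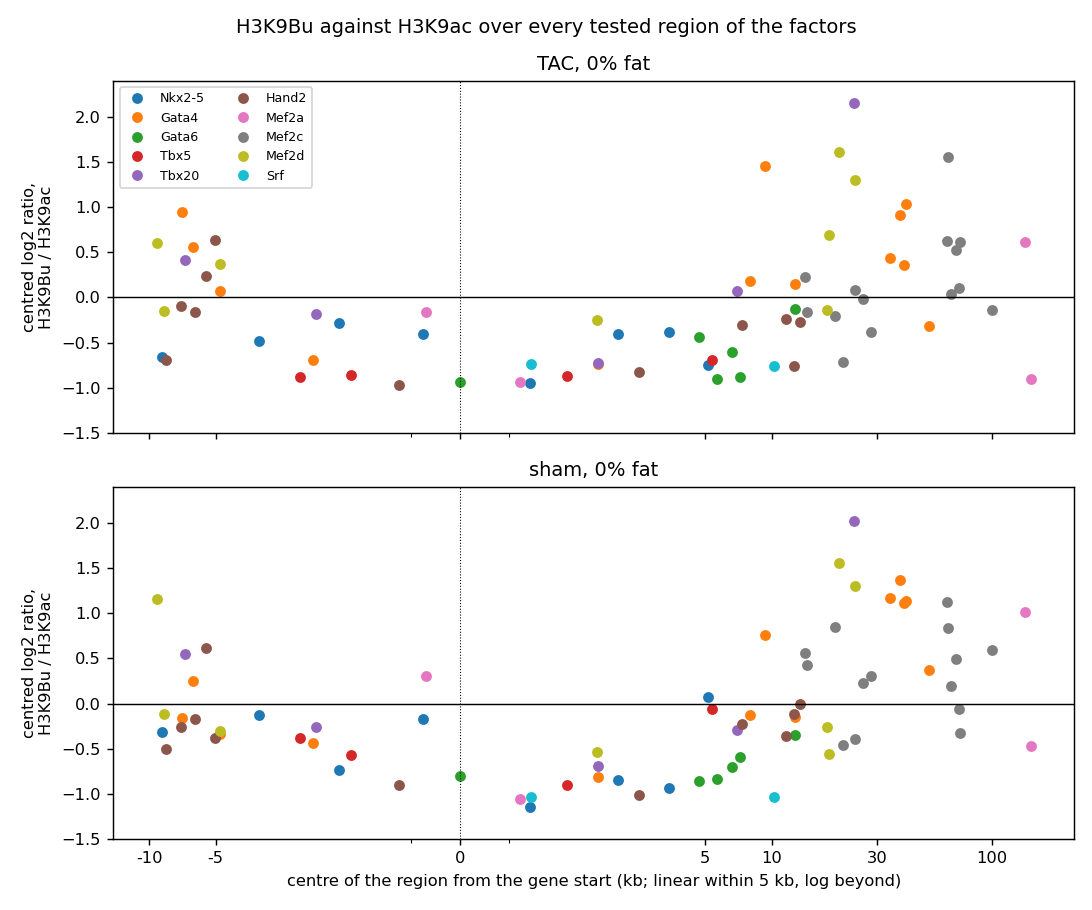
Centred log2 ratio of H3K9Bu over H3K9ac at 0% fat for the 75 tested regions of the factors, against distance of the region's centre from the gene start, linear within 5 kb and logarithmic beyond, in TAC (upper panel) and sham hearts (lower panel). Points near the start lie mostly below 0, and the highest is Tbx20 at 23719 bp, at 2.15 in TAC and 2.02 in sham hearts.

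Distal regions of Tbx20, Mef2d and Gata4 were among those that leaned most to H3K9Bu. Tbx20 at 23719 bp had 26.9 for H3K9Bu and 6.4 for H3K9ac in TAC hearts (2.15), and 33.1 and 8.0 in sham hearts (2.02). Mef2d at 20284 bp, a region nearest to 1700113A16Rik, had 41.5 and 15.4 in TAC hearts (1.61), and 52.5 and 18.5 in sham hearts (1.56). Gata4 at 38360 bp had 28.3 and 17.3 in TAC hearts (0.92), and 54.2 and 21.8 in sham hearts (1.37). At the other end, Srf had 30.3 and 60.4 in TAC hearts (-0.74), and 33.7 and 75.2 in sham hearts (-1.04), at its promoter, and Nkx2-5 had 14.8 and 35.0 in TAC hearts (-0.95), and 21.3 and 52.1 in sham hearts (-1.15).

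Gene lists drawn up around the members were read in the same H3K9ac fit of surgery, at each gene's strongest promoter region. Over all regions of that fit, 4.05% rose, 3.59% fell and 21.4% had an unadjusted p under 0.05. Among 16 cofactors and repressors, 15 were tested, 1 rose and 0 fell. It was Mkl1, a cofactor that enters the nucleus and joins SRF when actin polymerizes, with 74.3 and 78.2 in TAC hearts at 10 and 60% fat, against 60.4 and 61.5 in sham hearts (0.26 ± 0.07, limma adjusted p = 0.0137). By the rule of the largest ratios at 60% fat, the others named are Myocd, the SRF cofactor of cardiac and smooth muscle, at -0.29, Smyd1, a muscle methyltransferase, at -0.32, and Hdac9, a repressor of MEF2, at -0.40. Of 25 other heart transcription factors, 20 were tested and 0 passed by limma, with 3 at an unadjusted p under 0.05. At 60% fat Irx3 stood at -0.29, Irx4 at -0.39 and Tbx2 at 0.26.

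Of 25 known target genes of the members, 21 were tested, 2 rose and 7 fell, where 4.05% of all regions rose and 3.59% fell. All 9 are named here because they passed, so the choice was made after their values were seen; Nppb, Actc1 and Kcnh2 also have the largest ratios at 60% fat (1.39, -0.72 and -0.72). Those that rose were Nppb, the natriuretic peptide of the loaded ventricle, with 38.0 and 39.3 in TAC hearts at 10 and 60% fat, against 15.9 and 12.9 in sham hearts (1.31 ± 0.21, limma adjusted p = 2.051e-07), and Ankrd1, a stretch-responsive cofactor, with 41.7 and 40.4 in TAC hearts, against 26.0 and 22.0 in sham hearts (0.69 ± 0.15, limma adjusted p = 0.000543). Those that fell were Myh6, Actc1, Tnnt2, Tnni3, Kcnh2, Des and Csrp3, genes of the sarcomere, its links and a potassium channel, with the largest difference at Kcnh2 (-0.55 ± 0.09, limma adjusted p = 8.794e-08). Of these, 4 also stand in the cardiomyocyte list. The median over the 21 was -0.15, against 0.02 over all regions. For H3K9Bu 0 genes of the 3 lists passed by limma in either effect. Over all H3K9Bu regions, 0.0711% rose and 0 fell after TAC, and 3.25% were higher and 0.211% lower at 60% fat. For surgery, 0 cofactors, 1 other factor and 0 targets had an unadjusted p under 0.05, where 9.87% of all regions did.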

How the data were processed

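Chromatin of mouse hearts was precipitated with antibodies to H3K9Bu or H3K9ac, and each of 12 libraries comes from a pool of 3, per the labels' protocols. Reads were processed with BWA and SICER on mm10, per the submitters' processing notes, whose versions are not given in the sources used here. The authors deposited 3 tables of merged regions with an average signal and a peak signal per library. They also deposited a score (an estimated tag number) per compared pair of libraries, that of the larger library. How the authors scaled libraries to each other is not given in the sources used here. Average signal was used, and peak signal as an alternative. Tags were estimated as average signal times region length over 224 bp. In the cells compared, the deposited tag score equalled the larger value of some pair of libraries of its table. Whether it was the named pair was not checked. Intervals from the estimated tags cover counting error only. There were 0 value columns that could not be mapped to a library.

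Members and gene lists were chosen with earlier results of these data known. Regions whose mean signal lay below the 25th percentile of their table were not tested, log2 ratios used a pseudocount of 1, and each comparison was centred on its median over all tested regions. With 1 library per group, comparisons within a diet have no test. In the tables of 10 and 60% fat, surgery and diet were fitted as additive terms over 4 libraries (limma 3.58.1, R 4.3.3, trended empirical Bayes, Benjamini-Hochberg over all regions, 1 residual degree of freedom). The limma script was tested on simulated data. Python 3.11.15, scipy 1.17.1, statsmodels 0.14.6 and matplotlib 3.10.9 were used for the rest. The text names all 10 members and, of each gene list, the 3 genes farthest from 0 in H3K9ac, TAC over sham, at 60% fat. Alternatives were a pseudocount of 5, peak signal, no filter, no centring, lowess centring, the mean over all regions of a gene, and leaving out each library. Promoter sequences are from RefSeq (GRCm38.p6). All 10 members matched a gene ID there.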

Additional observations from a re-analysis of the deposited data

Results flagged for a closer look

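The Srf promoter had an H3K9ac log2 ratio of TAC over sham of -0.46 at 0% fat and of 0.16 at 10% fat. It is listed because, on average signal, the single pair of libraries at each of these diets went in opposite directions. Both counting intervals leave out 0. Peak signal, as deposited, was higher in TAC hearts at both diets. It was 142 in TAC and 134 in sham hearts at 0% fat, and 142 and 114 at 10%. The difference between the diets was not tested, and the diets stand in separate tables.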

How the results depend on the processing

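No pairing of replicates was possible because each group has 1 library and the labels give no shared replicate numbers. Surgery was compared within diet only through the diet term of the additive fit. Scaling was the choice that moved most values: of 52 promoter ratios, 21 moved out of their counting interval without centring, 18 on peak signal, 15 with the mean over all regions, 3 with lowess centring, 1 without the filter and 0 with a pseudocount of 5. Of the 7 regions called for surgery in H3K9ac, 0 were called without centring, 3 without the filter and 1 on peak signal, against 7 with lowess centring or a pseudocount of 5. For the H3K9Bu diet effect, 1 member region (Mef2d at 28665 bp) was called with lowess centring.

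Medians of the members' strongest promoters moved as follows. Without centring, TAC over sham was -0.16 at 0% and -0.12 at 60% fat for H3K9ac (with centring -0.31 and -0.26) and -0.89 at 10% fat for H3K9Bu (-0.28), 60 over 10% fat in sham H3K9Bu was -0.75 (-0.24), the H3K9Bu surgery effect was -0.70 (-0.27), and H3K9Bu over H3K9ac in TAC hearts was -0.97 (-0.74). On peak signal, TAC over sham H3K9ac was -0.17 at 0% and -0.0484 at 60% fat, and the H3K9ac surgery effect was -0.0632 (-0.18 on average signal). H3K9Bu over H3K9ac in TAC hearts was -0.57 with lowess centring, -0.90 without the filter and -0.33 with the mean over all regions, which in sham hearts gave -0.18 (-0.70). Leaving out 1 library at a time, with no test, gave medians from -0.24 to -0.12 for the H3K9ac and -0.37 to -0.15 for the H3K9Bu surgery effect, and from -0.06 to 0.05 for the H3K9ac and -0.38 to -0.28 for the H3K9Bu diet effect. The cause was not tested.

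Over all regions, the H3K9ac surgery fit called 1159 higher and 1028 lower, 825 and 1165 with lowess centring, 1274 and 462 without centring, 1778 and 805 without the filter, and 482 and 524 on peak signal. The H3K9ac diet fit called 6 higher and 37 lower, 5 and 13 with lowess centring, 1 and 2 without centring, 6 and 67 without the filter, and 0 and 0 on peak signal. The H3K9Bu surgery fit called 31 higher and 0 lower, 176 and 2 with lowess centring, 0 and 0 without centring, 19 and 0 without the filter, 1 and 0 on peak signal, and 3 and 0 with a pseudocount of 5. The H3K9Bu diet fit called 1418 higher and 92 lower, 1602 and 67 with lowess centring, 0 and 0 without centring, 1038 and 25 without the filter, 806 and 853 on peak signal, and 755 and 19 with a pseudocount of 5.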
